A study of Mus musculus with 6 samples.

Results

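Gja4, Gja5, Bmx, Hey2 and Depp1 are genes used as markers of arterial endothelium, the inner cell layer of arteries. They were taken from the tables by gene symbol. All 5 were found among the 19131 genes of the tables, and all 5 were among the 15035 genes tested. The libraries were made from whole skin of mouse embryos at embryonic day 17.5 on a C57BL/6N strain background, 3 labelled Tie1 knockout and 3 labelled control. TIE1 is an endothelial receptor tyrosine kinase, and the series asks how its loss affects sprouting and the assembly of veins. The labels add the letters ECD to Tie1 in both groups without explaining them, and do not name the allele, the cells in which Tie1 was deleted, the litters, or whether each library of a group is from its own embryo. P-values therefore measure the spread between these libraries, which may be technical in part.

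Arteries and veins share most of their endothelial genes and differ in a smaller set. In the arterial program, VEGF and Notch signalling act together with the SOX17 factor, and blood flow strengthens it. HEY2 is a transcriptional repressor induced by Notch, BMX is a cytoplasmic tyrosine kinase of the TEC family, and GJA4 and GJA5 are the connexins CX37 and CX40, which build the gap junctions that couple arterial endothelial cells. DEPP1 is a small protein whose gene is induced by FOXO transcription factors, which are themselves held in check by signalling through the TIE2 receptor and AKT.

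The 6 libraries held 19826856 to 20591164 estimated reads. Tie1 had 84, 53 and 46 reads in knockout 1, 2 and 3 and 1187, 1023 and 1215 in control 1, 2 and 3, so each library matched its label (a log2 difference of −4.20, edgeR adjusted p = 0.00387). The 10 keratinocyte and dermal fibroblast markers summed to 48920 to 60833 CPM (reads of a gene scaled to a common library size) across the libraries, and the 20 pan-endothelial markers, none of them at 0, to 1020 to 1184 CPM in knockout and 1069 to 1143 CPM in control. In whole skin, fewer cells of a type and less RNA per cell cannot be told apart. Knockout 1 and control 1 stood apart from the other libraries in hair follicle genes, which summed to 435.8 and 485.5 CPM there against 808.3 to 1083 CPM elsewhere. Y-linked genes summed to 138.5 to 162 CPM in knockout 2, knockout 3 and control 3 and to 2.69 to 3.39 CPM in the other libraries, so that embryos of both sexes were in both groups.

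The DNA just before the transcription start of Gja4, Gja5, Hey2 and Depp1 is shown because the 2 connexin genes had lower values in the knockout and the other 2 genes higher ones, and because HEY2 and DEPP1 are known for their Notch and FOXO inputs. The sequences are from the 250 bases before the RefSeq start (GRCm38.p6), read 5′ to 3′ on the gene's strand and ended at the first annotated exon. For Hey2 and Depp1 an exon annotated by GENCODE begins before the RefSeq start, which leaves 232 and 175 bases. Distances below are counted from the RefSeq start, not from the end of the printed sequence. Capitals mark matches to the RBPJ core TGGGAA, the DNA-binding partner of Notch, or to the forkhead variant TATTTAC, on either strand.
Gja4, chr4:127314040-127314289, minus strand: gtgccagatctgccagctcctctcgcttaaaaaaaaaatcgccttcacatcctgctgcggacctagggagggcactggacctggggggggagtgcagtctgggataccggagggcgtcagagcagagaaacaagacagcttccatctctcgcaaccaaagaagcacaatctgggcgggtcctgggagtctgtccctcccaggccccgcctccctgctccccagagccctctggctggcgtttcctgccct
Gja5, chr3:97032152-97032401, plus strand: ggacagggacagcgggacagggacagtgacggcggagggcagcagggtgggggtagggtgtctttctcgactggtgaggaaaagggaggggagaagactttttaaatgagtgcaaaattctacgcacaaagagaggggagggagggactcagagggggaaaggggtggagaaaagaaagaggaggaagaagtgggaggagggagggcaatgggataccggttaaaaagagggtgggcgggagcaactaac
Hey2, chr10:30842802-30843033, minus strand: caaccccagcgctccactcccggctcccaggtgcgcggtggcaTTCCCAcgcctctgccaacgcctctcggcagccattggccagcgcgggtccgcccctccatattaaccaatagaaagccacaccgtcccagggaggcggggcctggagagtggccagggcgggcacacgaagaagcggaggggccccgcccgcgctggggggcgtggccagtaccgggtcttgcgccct
Depp1, chr6:116650434-116650608, plus strand: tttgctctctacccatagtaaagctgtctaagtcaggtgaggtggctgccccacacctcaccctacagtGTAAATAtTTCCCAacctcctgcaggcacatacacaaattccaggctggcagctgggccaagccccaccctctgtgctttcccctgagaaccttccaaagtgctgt
An RBPJ core was found in the 250 bases before the RefSeq start of Hey2 (207 to 202 bases upstream), Depp1 (173 to 168) and Bmx (178 to 173), and in 21.6% of all 32851 RefSeq windows of this length. Bmx, whose sequence is not printed, had lower values in the knockout, as the 2 connexin genes did. The forkhead variant was found in Depp1 alone of the 5, 181 to 175 bases upstream, and in 2.73% of all windows. The 2 matches in Depp1 lie next to each other, separated by a single base. The FOXO core TGTTTAC (3.17% of windows), the SOX core ATTGTT (9.42%), the E-box CACGTG bound by HES and HEY factors (6.02%) and the COUP-TF half-site AGGTCA (14.0%) had no match in any of the 5 windows. The ETS core AGGAAG, present in 29.5% of windows, was found in Gja5, 68 to 63 bases upstream. These are matches of letters only, on either strand, with no overlap among them, and the motifs were chosen after the windows had been seen.

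The fold changes of the 5 genes did not all have the same sign. Gja4, Gja5 and Bmx had lower values in the knockout, with log2 fold changes of −0.29, −0.49 and −0.60, whereas Hey2 and Depp1 had higher values, at 0.20 and 0.76. None of the 5 passed edgeR's quasi-likelihood test at a Benjamini-Hochberg adjusted p under 0.05, where 0.16% of all genes tested were called. At an unadjusted p under 0.05 there were 2 of 5, Gja5 and Depp1, against 7.42% of all genes. DESeq2 called 1 of the 5, Depp1 (1.4% of all genes), and limma-voom none (0.0998%). The groups did not overlap for Gja5 and Bmx, both lower, and for Depp1, higher, 3 of 5 against 13.8% of all genes (6.78% lower and 7.03% higher). The median log2 fold change of the 5 genes was −0.29, beside 0.0038 over all 15035 genes.

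**Figure D1:**
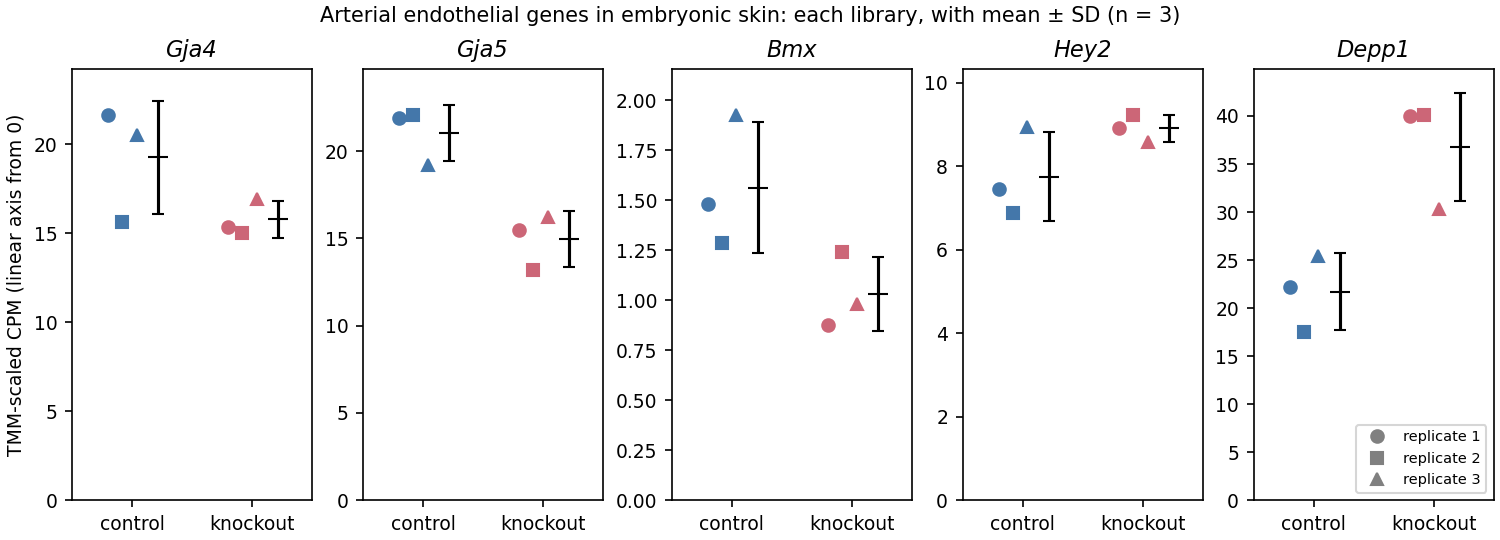
TMM-scaled CPM of each gene (vertical axes, linear and starting at 0, with a different range per panel) in the 3 control and 3 knockout libraries (symbols), with the mean ± SD of each group in black. Gja5 and Bmx lie lower and Depp1 higher in every knockout library than in any control library, while control 2 lies among the knockout libraries for Gja4 and control 3 among them for Hey2.

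Gja5 (gene 14613, chromosome 3, 97032402 to 97053634, GRCm38.p6, a protein-coding gene whose RefSeq mRNA has 2 exons) encodes connexin 40, which in vessels is largely limited to arteries. It stood at 15.5, 13.2 and 16.2 CPM in knockout 1, 2 and 3 and at 21.9, 22.04 and 19.2 CPM in control 1, 2 and 3. Every knockout library lay below every control library, and the nearest values were those of knockout 3 and control 3. The means were 15.0 ± 1.59 against 21.0 ± 1.599 CPM (SD, n = 3 each), a log2 fold change of −0.49 (SE 0.11, 95% interval −0.75 to −0.23, edgeR adjusted p = 0.238). In level this is 0.71 of the control, and the interval runs from 0.594 to 0.851. Summed reads were 897 against 1278, a ratio of 69.0% after scaling to library totals (exact 95% interval 63.3 to 75.2%, counting error only). By its unadjusted p the gene ranked 170 of 15035. The DESeq2 adjusted p was 0.0511, the closest of any alternative setting to the threshold, within a range of 0.0511 to 0.954.

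Gja4 (gene 14612, chromosome 4, 127311420 to 127314039, 2 exons) encodes connexin 37, the other main connexin of arterial endothelium. It stood at 15.4, 15.0 and 16.9 CPM in knockout 1, 2 and 3 and at 21.6, 15.7 and 20.5 CPM in control 1, 2 and 3. The knockout libraries lay close together, and control 2 fell among them while control 1 and control 3 were higher. The means were 15.8 ± 1.02 against 19.2 ± 3.17 CPM (SD, n = 3), a log2 fold change of −0.29 (SE 0.14, 95% interval −0.60 to 0.030, edgeR adjusted p = 0.685). The fold change was −0.13 with the pan-endothelial score as a covariate, −0.48 with the score of mural and smooth muscle cell genes, and −0.18 without knockout 1 and control 1, none of them past the threshold (edgeR adjusted p = 0.9999, 0.472 and 0.734). It was −0.29 with the hair follicle score and −0.32 with the Y-linked score, and with single libraries left out it ran from −0.42 (without control 2) to −0.20 (without control 1). Gja4 lies 8.82 Mb from Tie1 on the same chromosome. The 188 tested genes within 10 Mb of Tie1, with Gja4 among them and Tie1 left out, had a median log2 fold change of −0.015. By edgeR 0 were called, and 11 had an unadjusted p under 0.05 (5 lower, 6 higher), against 7.42% of all genes.

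The 2 connexins were set against each other within each library, which cancels library size. The Gja4 to Gja5 log2 ratio was 0.079 ± 0.099 in knockout and −0.14 ± 0.31 in control libraries, a difference of 0.22 (SD, n = 3, two-sided exact permutation p = 0.4). Control 2 set most of that spread, with −0.49 against −0.020 and 0.093 in control 1 and control 3, and without it the difference was 0.042. The 6 other connexins on the list had a median log2 fold change of 0.16. Gjd3, a connexin of low level in skin, had 1, 2 and 4 reads in knockout 1, 2 and 3 against 20, 16 and 44 in control 1, 2 and 3, a log2 fold change of −3.43 (SE 0.62, adjusted p = 0.140 by edgeR). Gjc1, the connexin 45 gene of mural and early endothelial cells, stood at 47.1 ± 0.380 against 40.2 ± 1.205 CPM (SD, n = 3), a difference of 0.23 on the log2 scale (SE 0.061, adjusted p = 0.367 by edgeR). The widely expressed connexin 43 gene Gja1 was at 0.019 (SE 0.17). None of the 6 passed the edgeR test or limma-voom. Gjd3 and Gjc1 were the 2 at an unadjusted edgeR p under 0.05, against 7.42% of all genes. Their groups did not overlap, against 13.8% of all genes. DESeq2 called 1 of the 6, Gjd3, lower in the knockout (adjusted p = 0.00304), against 1.4% of all genes.

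Bmx (gene 12169, chromosome X, 164192842 to 164258193, 19 exons) encodes the TEC family kinase whose regulatory DNA is used to drive transgenes in arterial endothelium. It had the fewest reads of the 5 genes, 17, 25 and 20 in knockout 1, 2 and 3 and 30, 26 and 39 in control 1, 2 and 3. In CPM these were 0.876, 1.24 and 0.981 against 1.48, 1.29 and 1.92. The groups did not overlap, but knockout 2 and control 2 were 1 read apart. The means were 1.03 ± 0.187 against 1.56 ± 0.327 CPM (SD, n = 3), a log2 fold change of −0.60 (SE 0.27, 95% interval −1.23 to 0.039, edgeR adjusted p = 0.685). The interval holds both no change and a level of 0.426 of the control. Counting alone left a ratio of summed reads, 62 to 95, of 64.2% with an exact 95% interval of 45.8 to 89.3%.

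Because Bmx is X-linked, it was also compared by the Y-linked signal of the libraries. Among libraries with Y-linked reads, knockout 2 and 3 stood at 1.24 and 0.981 CPM and control 3 at 1.92 CPM. Among those with few, knockout 1 stood at 0.876 CPM and control 1 and 2 at 1.48 and 1.29 CPM. Each kind held a group of 1 library, so no test was made within them. With the Y-linked score as a covariate Bmx stood at −0.72 on the log2 scale (SE 0.26, adjusted p = 0.412 by edgeR). Btk, a TEC family kinase of B and myeloid cells, stood at −0.31 on the log2 scale (SE 0.21, adjusted p = 0.782 by edgeR), and Tec, which gives the family its name, at 0.0063 (SE 0.15, adjusted p = 0.997), and neither passed.

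Hey2 (gene 15214, chromosome 10, 30832359 to 30842783, 5 exons) encodes the Notch effector that favours arterial over venous fate. It stood at 8.92, 9.22 and 8.59 CPM in knockout 1, 2 and 3 and at 7.45, 6.88 and 8.94 CPM in control 1, 2 and 3. Control 3 lay within the knockout range and the other control libraries below it. The means were 8.91 ± 0.317 against 7.76 ± 1.06 CPM (SD, n = 3), a log2 fold change of 0.20 (SE 0.13, 95% interval −0.11 to 0.51, edgeR adjusted p = 0.779). In level the interval runs from 0.926 to 1.425 times the control. The value was 0.32 with the posterior Hox score as a covariate, 0.11 without control 2 and 0.31 without control 3, none past the threshold (edgeR adjusted p = 0.688, 0.951 and 0.720).

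Hey2 sits downstream of Notch, so the 14 genes of Notch signalling and its HES and HEY targets were read beside it. Of these, 1 rose and 0 fell by edgeR, where 0.16% of all genes were called, and the median log2 fold change was 0.0054. The gene that rose was Notch4, an endothelial Notch receptor, at 30.8, 25.6 and 27.6 CPM in knockout 1, 2 and 3 against 13.4, 12.8 and 14.1 CPM in control 1, 2 and 3, a log2 fold change of 1.06 (SE 0.098, adjusted p = 0.0173 by edgeR). Hes1, a general Notch target, stood at 0.23 (SE 0.098, adjusted p = 0.671), Heyl at 0.046 (SE 0.076, adjusted p = 0.916) and Hes5 at −0.56 (SE 0.25, adjusted p = 0.684). Hey1, the closest relative of Hey2, had a log2 fold change of 0.20 (SE 0.17, adjusted p = 0.827), the same size as that of Hey2 to 2 decimals. Dll4, Jag1 and Hey1, on the arterial list, and Notch3, on the mural list, are not among the 14. By DESeq2, Dll4 stood at 1.05, Jag1 at 0.11 and Notch3 at 0.22 (adjusted p = 2.72e-06, 0.9997 and 0.897).

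Depp1 (gene 213393, chromosome 6, 116650684 to 116652847, 2 exons) had the widest difference of the 5 genes. It stood at 40.0, 40.1 and 30.3 CPM in knockout 1, 2 and 3 and at 22.2, 17.5 and 25.4 CPM in control 1, 2 and 3. Every knockout library lay above every control library, with knockout 3 nearest to the controls. The means were 36.8 ± 5.60 against 21.7 ± 3.99 CPM (SD, n = 3), a log2 fold change of 0.76 (SE 0.17, 95% interval 0.37 to 1.15, edgeR adjusted p = 0.227). In level this is 1.70 times the control, with an interval of 1.29 to 2.225. Summed reads were 2202 against 1318, a ratio of 164% (exact 95% interval 153 to 176%, counting error only). DESeq2 gave the same fold change, 0.76 (SE 0.18), with an adjusted p of 0.00495, whereas limma-voom gave 0.76 with an adjusted p of 0.238. Without 1 library the fold change ran from 0.62 (control 2 left out) to 0.88 (control 3 left out), with edgeR adjusted p = 0.188 to 0.771. By its unadjusted p Depp1 ranked 166 of 15035.

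As DEPP1 is a FOXO target, the 14 other FOXO factors and target genes of the list were read beside it. No gene of these passed by edgeR, DESeq2 or limma-voom. An unadjusted edgeR p under 0.05 was reached by 5 (3 higher, 2 lower), against 7.42% of all genes, and the median log2 fold change was 0.077. Foxo3 stood at 124 ± 13.6 against 97.3 ± 6.94 CPM (SD, n = 3), a log2 fold change of 0.35 (SE 0.095, adjusted p = 0.383 by edgeR). The groups did not overlap for 2 higher genes, Foxo3 and Bcl6, and 2 lower ones, Sesn1 and Sesn3, against 13.8% of all genes. Foxo1, the main FOXO factor of endothelium, was at −0.085 (SE 0.12, adjusted p = 0.901). Among targets, Bcl6 and Irs2 stood at 0.53 (SE 0.17, adjusted p = 0.509) and 0.46 (SE 0.16, adjusted p = 0.539), and the sestrin genes Sesn3 and Sesn1 at −0.31 (SE 0.12, adjusted p = 0.625) and −0.15 (SE 0.063, adjusted p = 0.671).

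Depp1 is also expressed in fat, so adipocyte genes are given beside it. Of the 10 listed, 8 were tested, and by edgeR 1 fell and 0 rose (3 fell by DESeq2, 0 by limma-voom). The shares of all genes called were 0.16%, 1.4% and 0.0998% by these tools. Plin1, a lipid droplet protein, was the gene that fell, from 7.37 ± 2.36 CPM in control to 0.786 ± 0.295 CPM in knockout (SD, n = 3, edgeR adjusted p = 0.0353). The list summed to 310.5 to 459.5 CPM in knockout and 355.7 to 432.8 CPM in control libraries, with no member at 0 in every library. The highest sum was that of knockout 1, where Dgat2 stood at 313 CPM, against 121 to 133 CPM in the other libraries. Of the 8 tested, 4 had values below 0 (Plin1, Adipoq, Fabp4 and Pparg), each without overlap between the groups, against 6.78% of all genes. The other 4, Dgat2 (0.55, SE 0.38), Ucp1 (0.44, SE 0.44), Cidea (0.15, SE 0.23) and Lipe (0.054, SE 0.19), had values above 0, as Depp1 did, with overlapping groups. Their part in the Depp1 value was not tested.

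**Figure D2:**
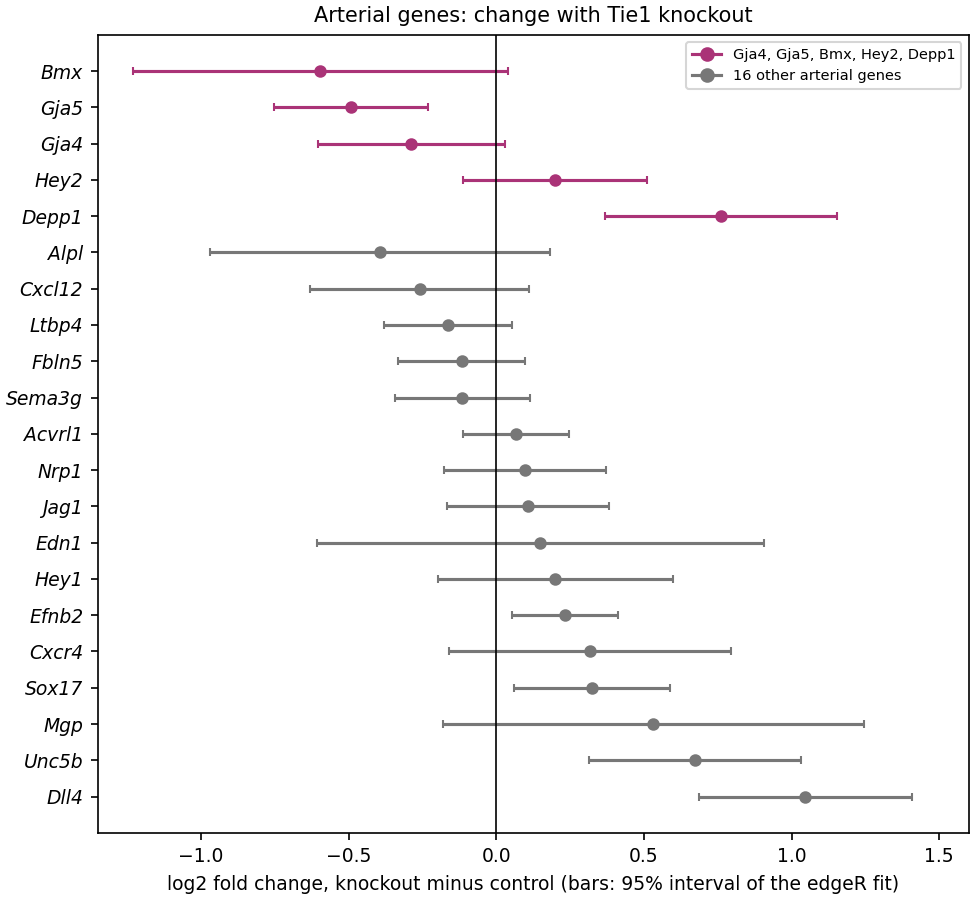
Log2 fold change, knockout minus control (horizontal axis), with the 95% interval of the edgeR fit, for the 5 genes (purple) and 16 other arterial genes (grey), each group sorted by value. The intervals of Gja5 and Depp1 lie on opposite sides of 0, and Dll4 has the highest value of all the genes drawn at 1.05.

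The other genes on the arterial list, some of which are also expressed outside arterial endothelium, are given beside the 5. Of 16 tested, 11 had values above 0 and 5 below, with a median of 0.13 against −0.29 for the 5 genes. By edgeR none passed and 4 reached an unadjusted p under 0.05, against 7.42% of all genes. DESeq2 called 2 (1.4% of all genes) and limma-voom 0 (0.0998%). The 4 were Dll4, Unc5b, Efnb2 and Sox17, all higher in the knockout and without overlap between the groups (7.03% of all genes). Dll4, the Notch ligand of arteries and of sprouting tip cells, stood at 21.96, 24.9 and 30.4 CPM in knockout 1, 2 and 3 and at 11.4, 11.5 and 14.5 CPM in control 1, 2 and 3, a log2 fold change of 1.05 (SE 0.15, adjusted p = 0.0702 by edgeR). Unc5b, a netrin receptor of arteries and tip cells, stood at 65.3, 94.5 and 80.0 against 45.2, 47.7 and 57.5 CPM (a log2 difference of 0.67, SE 0.15, adjusted p = 0.261). These 2 are the genes that DESeq2 called, with adjusted p = 2.72e-06 and 0.00563.

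Sox17, a transcription factor needed for arterial fate, stood at 13.4, 16.5 and 14.3 against 12.6, 11.6 and 11.2 CPM (a log2 difference of 0.32, SE 0.11, adjusted p = 0.541). Efnb2, which encodes the classical arterial surface protein ephrin-B2, stood at 134, 123 and 119 against 99.2, 106 and 114 CPM (a log2 difference of 0.23, SE 0.077, adjusted p = 0.518). In both genes every knockout library was higher than every control library, by a narrow margin. Ltbp4 and Mgp, matrix proteins of elastic vessel walls and of arteries, were the next by p, at −0.16 (SE 0.093, adjusted p = 0.737) and 0.53 (SE 0.30, adjusted p = 0.737). Whether these genes as a set differed from the 5 was not tested, since both sets were drawn up with earlier results known.

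The 5 genes were also compared in pairs by their ratio within each library. Of the 10 pairs, 7 did not overlap between knockout and control, and each of the 7 had the smallest p that 3 against 3 libraries allow (two-sided exact permutation p = 0.1, 0.143 adjusted over the 10 pairs). No pair could pass 0.05 in this design. The 7 pairs were the 6 that set Gja4, Gja5 or Bmx against Hey2 or Depp1, and Hey2 against Depp1. Those 6 set a gene lower in the knockout against a higher one, so they restate the single-gene directions in part. The pairs share genes and are not independent, and the share of such pairs over all genes was not computed. The Bmx to Depp1 log2 ratio was −3.71 ± 0.092 in control and −5.03 ± 0.29 in knockout libraries, a difference of −1.31. The Gja5 to Depp1 ratio differed by −1.26 and the Gja4 to Depp1 ratio by −1.04. The Gja5 to Hey2, Gja4 to Hey2 and Bmx to Hey2 ratios differed by −0.70, −0.48 and −0.76, and Hey2 to Depp1 by −0.56. The 3 pairs that overlapped were those among Gja4, Gja5 and Bmx, with differences of 0.22, 0.28 and 0.058 (exact permutation p = 0.4, 0.3 and 0.8). These 3 moved with single libraries: the Gja4 to Gja5 difference was 0.33 without control 3, and the Gja4 to Bmx difference was 0.18 without control 3 and 0.44 without knockout 2, while the Gja5 to Bmx difference ran from −0.16 (without control 3) to 0.27 (without knockout 2).

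Each gene was also set against the mean log2 CPM of 20 pan-endothelial genes in the same library. Genes of that list differed between the groups themselves, as given below, so the mean is not a measure of endothelial content alone. Gja5 stood at −1.36 ± 0.11 in knockout and −0.96 ± 0.12 in control, a difference of −0.41 without overlap (two-sided exact permutation p = 0.1, 0.25 adjusted over the 5 genes). Depp1 stood at −0.079 ± 0.33 against −0.93 ± 0.25, a difference of 0.85, also without overlap (exact permutation p = 0.1, adjusted 0.25). Gja4 differed by −0.19, Bmx by −0.46 and Hey2 by 0.29, and in each of these the libraries of the groups overlapped (exact permutation p = 0.4, 0.2 and 0.2). The Gja4 difference was −0.30 without control 2, and the Bmx difference −0.31 without control 3. The directions were those of the unadjusted levels for all 5 genes. The pan-endothelial list itself had 8 genes above 0 and 12 below, with a median log2 fold change of −0.093. None was called by edgeR or limma-voom, and 7 had an unadjusted edgeR p under 0.05, against 7.42% of all genes. The groups did not overlap for 3 of them, higher, and 5, lower, against 7.03% and 6.78% of all genes. DESeq2 called 2 of these 20, Emcn and Plvap, both lower in the knockout. For comparison, 3 of the 10 venous endothelial genes and 1 of the 8 lymphatic genes fell and none rose by edgeR, with medians of −1.41 and −0.32 (6 and 3 fell by DESeq2, 2 and 0 by limma-voom). Over all genes 0.16% were called by edgeR, 1.4% by DESeq2 and 0.0998% by limma-voom.

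**Figure D3:**
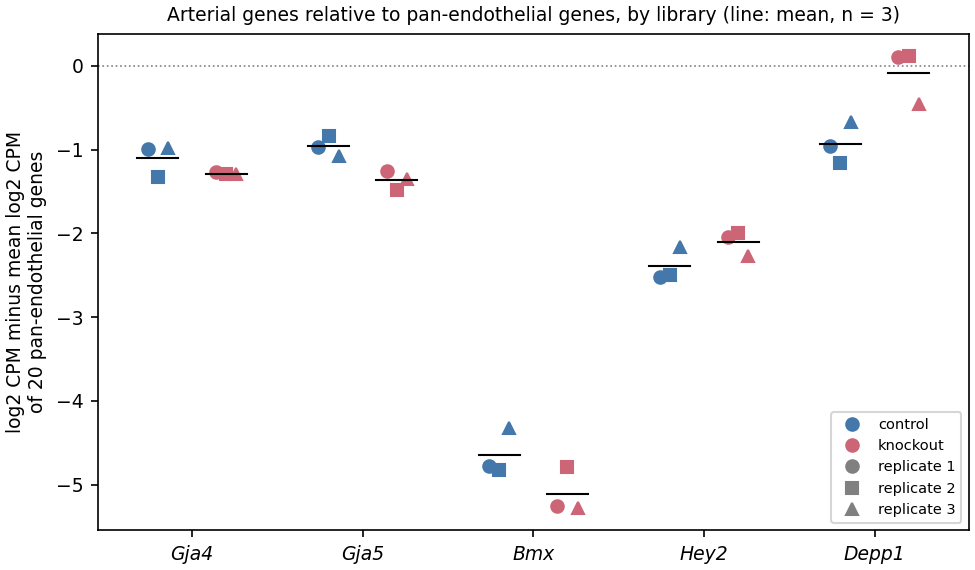
Log2 CPM of each gene minus the mean log2 CPM of 20 pan-endothelial genes in the same library (vertical axis), for control (blue) and knockout (red) libraries, with symbols for the replicate number and lines for the means of 3. Heights of different genes are not comparable, as gene length is not taken into account. Gja5 and Depp1 are the genes whose groups do not overlap, with mean differences of −0.41 and 0.85.

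Levels of the 5 genes can be ordered once divided by transcript length, taken from the longest GENCODE transcript paired with a RefSeq mRNA (1.32 to 3.11 kb). Per kilobase, control skin held 16.5 ± 3.03 CPM of Depp1, 11.4 ± 1.88 of Gja4, 6.77 ± 0.514 of Gja5, 3.04 ± 0.416 of Hey2 and 0.521 ± 0.109 of Bmx (SD, n = 3). No neighbours in this order overlapped among the control libraries, the closest being Depp1 in control 2, at 13.3, and Gja4 in control 1, at 12.8. In the knockout the order was the same, at 27.9 ± 4.25, 9.36 ± 0.604, 4.81 ± 0.511, 3.49 ± 0.124 and 0.344 ± 0.0622 CPM per kilobase, again without overlap. The gap between Gja5 and Hey2 was smaller in the knockout, where the lowest Gja5 library was at 4.24 and the highest Hey2 library at 3.62, than in the control, at 6.18 and 3.50.

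Markers of other cells moved in part with the groups and are given as measured. Of the 12 mural and smooth muscle genes 1 rose and 0 fell by edgeR, where 0.16% of all genes were called. Values were above 0 for 8 and below 0 for 4, with a median log2 fold change of 0.14. The gene that rose was Pdgfrb, the PDGF receptor of mural cells, while the contractile genes Cnn1 (−1.37, SE 0.27, adjusted p = 0.156) and Myh11 (−0.82, SE 0.20, adjusted p = 0.317) did not pass by edgeR. DESeq2 called 2 of the 12 higher, Pdgfrb among them, and 2 lower, Cnn1 and Myh11, against 1.4% of all genes. The groups did not overlap for 4 genes, higher, and 3, lower, against 7.03% and 6.78% of all genes. Rgs5 and Abcc9 were among the 4, at 0.41 and 0.46 by DESeq2 (adjusted p = 0.141 and 0.0886), and were not called. Log2 fold changes of the list ran from −1.37 to 1.40. The contractile genes Acta2 and Tagln stood at −0.066 and −0.27 by DESeq2 (adjusted p = 0.9997 and 0.593), and neither was called. The list summed to 1380 to 1742 CPM in knockout and 1422 to 1544 CPM in control, with no gene at 0 in every library. The 8 posterior Hox genes, whose expression follows body position, summed to 57.6 to 74.5 CPM in knockout and to 73.0, 45.5 and 38.2 CPM in control 1, 2 and 3. With that score as a covariate the log2 fold changes were −0.37 for Gja4, −0.55 for Gja5, −0.48 for Bmx, 0.32 for Hey2 and 0.84 for Depp1. The 10 myeloid and other leukocyte genes summed to 208.8 to 219.9 against 153.5 to 214.5 CPM, and the 10 skeletal muscle genes to 8150 to 13630 against 10697 to 11628 CPM. Beyond the fits with scores given here, the part of these cells in the results was not tested.

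**Figure D4:**
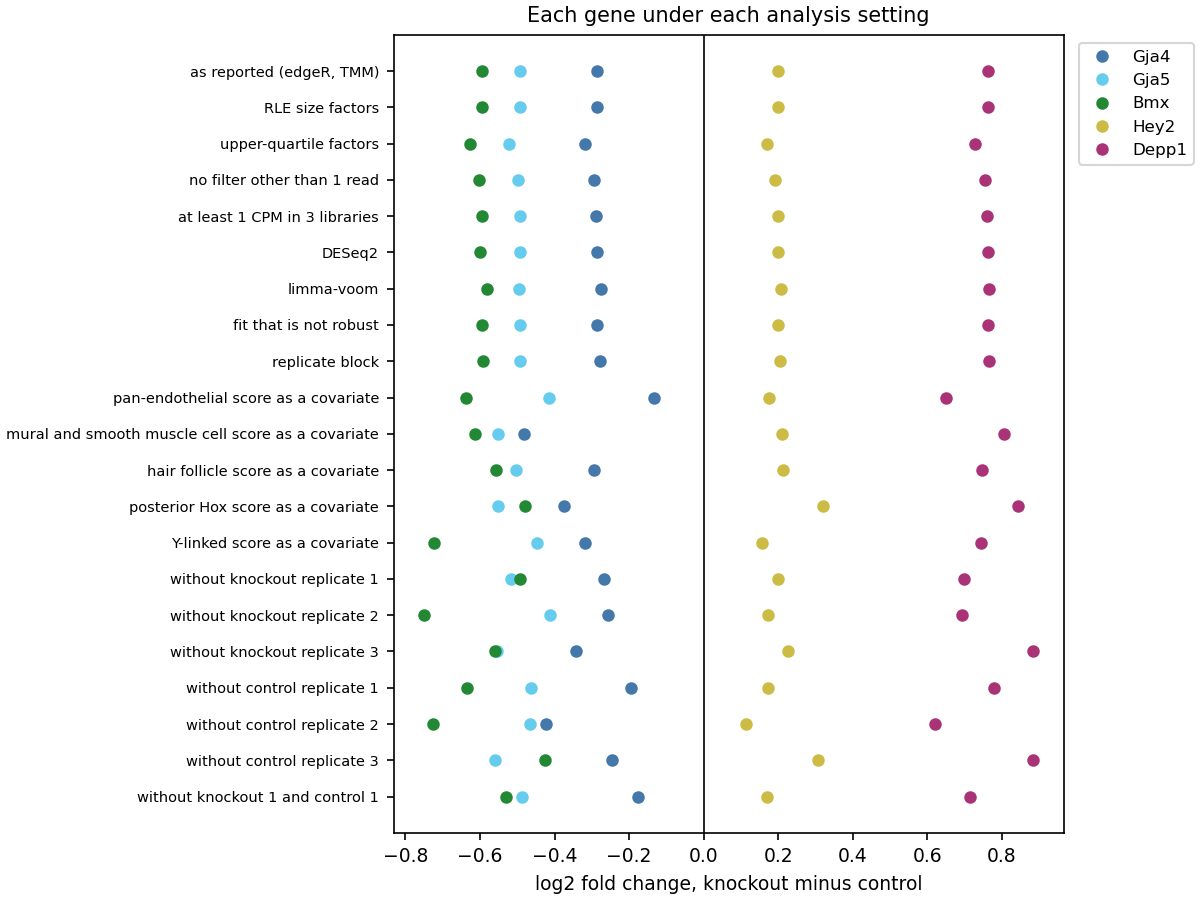
Log2 fold change, knockout minus control (horizontal axis), of the 5 genes under the reported analysis (top) and 20 alternatives (rows). Gja4, Gja5 and Bmx stay below 0 and Hey2 and Depp1 above 0 in every row, with the widest travel for Gja4, from −0.48 to −0.13.

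The genes whose levels followed each of the 5 most closely over the 6 libraries were ranked among 13803 tested genes whose mean was 1 CPM or more, by Pearson's r of log2 CPM. These values describe 6 libraries and are the highest of many, so they carry no p. They were Mmp2 (0.991), Flrt2 (0.987) and Klhdc2 (0.981) for Gja4, and Fam98a (0.995), Pdia4 (0.994) and Ppp1r1a (0.990) for Gja5. For Bmx they were Capza2 (0.992), Nudt7 (0.989) and Klc1 (0.979), for Hey2 Spock2, Fam174a and Tnfrsf9 (0.986 each), and for Depp1 Cttn (0.991), Col20a1 (0.986) and Plag1 (0.983). None of these 15 genes passed the edgeR test, and none is on the vascular lists used here.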

How the data were processed

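Poly(A)-selected RNA of whole skin was sequenced in 3 knockout and 3 control libraries. The authors deposited 1 estimated count (expected read count) per gene and library, not normalized, per the file headers. RSEM 1.2.12, Bowtie2 2.2.5, HISAT2 2.0.4 and the build GRCm38.p6 are listed, without roles, in the submitters' processing notes. Estimated counts share reads between similar genes by a model, and no source used here says whether counting used the strand, so overlapping genes cannot be told apart.

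No library repeated another of its group (chi-square per degree of freedom 9.95 to 47.2 between pairs, where sampling alone gives about 1). Counts were rounded and filtered with filterByExpr (minimum count 10), scaled by TMM and tested with edgeR 4.0.16 in R 4.3.3 (robust quasi-likelihood F test, genotype as the only term, Benjamini-Hochberg over 15035 genes). The code was tested on simulated data. SE is the absolute log2 fold change over the square root of F. Log2 CPM used a prior count of 2. Exact permutation tests were two-sided (Python 3.11.15). Alternatives were other scalings and filters, DESeq2 1.42.0, limma 3.58.1 voom, a non-robust fit, the replicate block, 5 composition scores, and libraries left out.

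The 5 genes, the 17 lists of 173 genes and the tests were chosen with earlier results of these data known. Named were the 5 genes, Tie1, the arterial genes with the 6 smallest p, up to 3 genes with the smallest p and any called gene of the other lists, and the 3 genes most alike each gene. Other genes, named after their values were seen, were Gja1, Heyl, Hey1, Foxo1, Sesn1, Sesn3, Myh11, Acta2, Tagln and the adipocyte genes beyond those of the rule. The result for 1 gene within this rule is not reported here. Of 19131 gene numbers, 19001 matched the GRCm38.p6 RefSeq table that gave positions.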

Additional observations from a re-analysis of the deposited data

How the results depend on the processing

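Gja4, Gja5, Bmx, Hey2 and Depp1 each kept their direction in all 20 alternatives and stayed on the same side of the threshold, except that Depp1 passed with DESeq2 (log2 fold change 0.76, adjusted p = 0.00495), which made the number of the 5 genes called 1 there. With 1 library left out the log2 fold changes ran from −0.42 to −0.20 for Gja4, −0.56 to −0.41 for Gja5, −0.75 to −0.43 for Bmx, 0.11 to 0.31 for Hey2 and 0.62 to 0.88 for Depp1. Among the other arterial genes Dll4 was called with DESeq2, with no filter, with the replicate block, with the hair follicle or Y-linked score and without knockout 1 and control 1, and Unc5b with DESeq2, the hair follicle score and without knockout 1 and control 1, so that the number called, 0 as reported, was 1 or 2 in these settings.

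The number of genes called among all genes, 24 as reported, was 210 with DESeq2, 15 with limma-voom, 38 with no filter, 52 with the replicate block, 105 with the hair follicle score, 139 without knockout 1 and control 1, 3 with the posterior Hox score, and 1 with either the pan-endothelial or the mural cell score. It was 1 to 11 with 1 library left out. The cause was not tested.

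Of the within-library values, the Gja5 to Bmx ratio changed sign without knockout 1 (−0.069), knockout 3 (−0.030) or control 3 (−0.16), around a reported difference of 0.058, and ran up to 0.27 with 1 library left out (without knockout 2). The other ratios and the values relative to pan-endothelial genes kept their direction with 1 library left out, though the Gja4 to Gja5 and Gja4 to Bmx ratios and the Gja4 and Bmx values relative to pan-endothelial genes moved by over 1.5 times, and with labels exchanged within replicate numbers no p under 0.25 was possible. Deviations of same-numbered libraries had correlations of 0.411, 0.0431 and 0.266, and those of differently numbered ones −0.353 to 0.184. Knockout 2 correlated best with control 3. These values do not settle whether the numbers pair the samples. With the replicate block the log2 fold changes were −0.28 for Gja4, −0.49 for Gja5, −0.59 for Bmx, 0.21 for Hey2 and 0.76 for Depp1. Depth limits Bmx, with 17 to 39 reads in a library, more than the other genes.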
